A study of Arabidopsis thaliana with 6 samples.

Results

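The clade A protein phosphatases type 2C (PP2C) of Arabidopsis thaliana are the 9 genes ABI1, ABI2, HAB1, HAB2, AHG1, PP2CA (also AHG3), HAI1 (also SAG113), HAI2 and HAI3, taken by their locus codes from a table of 33602 genes. Their transcripts were measured by messenger RNA sequencing of leaves from plants 25 days old, grown with 16 h light and 8 h dark. Of 6 libraries, 3 were labelled wild type and 3 came from the double mutant pub2pub4, named for the U-box ubiquitin ligase genes PUB2 and PUB4, and both groups were labelled mock. The sources used here do not give the mock treatment, the mutant alleles, the accession or whether each library is a separate plant. The p-values therefore reflect the variation among these 6 libraries, part of which may be technical. In these whole leaves, fewer cells of a type and less RNA per cell cannot be told apart.

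Clade A PP2Cs are the core negative regulators of abscisic acid (ABA) signalling. Without the hormone they dephosphorylate SnRK2 kinases and keep them inactive; ABA-bound receptors of the PYR/PYL family bind and inhibit the phosphatases, which frees the kinases to phosphorylate bZIP transcription factors of the ABF group and the guard-cell anion channel SLAC1. Several clade A genes are themselves known to be induced by ABA, a known feedback on the pathway.

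Library totals ran from 20506882 to 20732799 expected counts, the estimated number of reads assigned to each gene. PUB2 lay between 7.48 and 10.3 CPM (counts scaled to library size, with TMM factors) in wild type and between 0.382 and 0.588 CPM in the libraries labelled pub2pub4, and PUB4 between 19.0 and 23.6 and between 2.39 and 3.83 CPM. Leaf marker genes were abundant: the summed level of 3 mesophyll genes was 18700 to 20200 CPM in wild type and 17100 to 20600 CPM in pub2pub4. Most of this sum came from RBCS1A, which with CA1 had log2 fold changes of 0.05 and 0.02. LHCB1.2 was at -0.44 (edgeR adjusted p 0.293) and was called in 1 of the 6 fits with 1 library left out. Of 21 marker genes for mesophyll, guard cells, phloem, trichomes, seed and root, 17 were tested and edgeR called 0 between the genotypes. At an unadjusted p under 0.05 KAT1 and GL2 (2 genes) were lower, at log2 fold changes of -0.46 and -0.42 (edgeR adjusted p 0.0512 and 0.0964). KAT1 was called in 1 and GL2 in 0 of the 6 fits with 1 library left out. Of the other tools DESeq2 called KAT1 and limma-voom called 0. Of 3 seed markers OLEO1 and EM6 were at 0 in every library. Among 3 root-associated markers RHD6 was at 0 throughout, and the summed level was 109 to 130 CPM in wild type and 81.7 to 272 CPM in the mutant, most of it from PYK10. The 5 guard-cell markers summed to 65.8 to 72.8 CPM in wild type and 61.8 to 68.0 CPM in the mutant.

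The 300 bases upstream of the annotated start are shown for 4 phosphatase genes because the genes with the largest fold changes, HAI2 and HAI1, differ in them, and because each has a counterpart with the same number of motifs and a smaller fold change, PP2CA and ABI2. Sequences were read from the TAIR10.1 genome on the strand of the gene, upstream of the most upstream RefSeq transcript start. Capitals mark ACGTG or its reverse complement CACGT, the core of the ABA-responsive element that ABF factors bind.
HAI2, chr1:2282829-2283128, minus strand: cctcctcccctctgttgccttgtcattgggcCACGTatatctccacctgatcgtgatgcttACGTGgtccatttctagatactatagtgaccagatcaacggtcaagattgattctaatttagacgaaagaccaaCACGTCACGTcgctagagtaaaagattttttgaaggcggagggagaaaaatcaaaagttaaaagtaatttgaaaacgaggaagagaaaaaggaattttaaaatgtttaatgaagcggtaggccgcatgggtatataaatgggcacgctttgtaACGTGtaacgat
PP2CA, chr3:3585851-3586150, minus strand: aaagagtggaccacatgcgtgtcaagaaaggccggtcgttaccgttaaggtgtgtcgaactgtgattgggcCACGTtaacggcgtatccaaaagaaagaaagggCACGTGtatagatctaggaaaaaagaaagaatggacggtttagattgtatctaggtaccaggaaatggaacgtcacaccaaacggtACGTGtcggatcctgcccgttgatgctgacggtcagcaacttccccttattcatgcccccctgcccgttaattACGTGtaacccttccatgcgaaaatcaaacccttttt
HAI1, chr5:23896940-23897239, minus strand: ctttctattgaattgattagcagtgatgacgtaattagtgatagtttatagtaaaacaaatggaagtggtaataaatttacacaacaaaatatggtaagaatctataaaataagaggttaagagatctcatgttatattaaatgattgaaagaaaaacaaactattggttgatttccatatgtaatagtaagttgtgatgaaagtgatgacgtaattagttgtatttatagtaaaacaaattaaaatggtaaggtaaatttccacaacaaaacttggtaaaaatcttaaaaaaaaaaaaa
ABI2, chr5:23086822-23087121, plus strand: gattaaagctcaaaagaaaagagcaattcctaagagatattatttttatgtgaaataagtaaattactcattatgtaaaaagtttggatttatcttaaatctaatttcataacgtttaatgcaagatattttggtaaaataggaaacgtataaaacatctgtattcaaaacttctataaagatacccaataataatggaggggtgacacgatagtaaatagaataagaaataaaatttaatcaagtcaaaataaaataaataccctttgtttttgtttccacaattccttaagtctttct

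HAI2 and PP2CA each held 5 matches to ACGTG, counted on both strands, so that the palindrome CACGTG in PP2CA counts as 2. HAI1 and ABI2 held 0 in this window. HAI1 has a second annotated transcript start 237 bases downstream, and the 300 bases before that start held 3 matches. Among the other members ABI1 and HAB1 held 1 match each in this window and HAB2, AHG1 and HAI3 held 2 each, those of AHG1 again a single palindrome. AHG1 also has a second annotated start, 70 bases downstream, with 4 matches in the 300 bases before it. Before the most upstream start, at least 1 match was thus present in 7 of 9 members, against 25.6% of 27443 protein-coding promoters of the same length. At least 2 were present in 5 of 9, against 9.94%. The core of the dehydration-responsive element, CCGAC, was found in 2 of 9 members (AHG1 and PP2CA) and in 13.9% of all promoters, and the W-box core TTGAC in 6 of 9 and in 50.4%. The HD-Zip class I motif CAATNATTG was found in 0 of 9 members and in 1.14% of all promoters. These matches describe the letters of the window and not binding.

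In pub2pub4 leaves 4 clade A genes rose: ABI2, HAB1, HAB2 and HAI2. The remaining tested members, ABI1, PP2CA and HAI1, did not pass the test, and AHG1 and HAI3 had too few counts to be tested. A gene is called at an adjusted p under 0.05 in edgeR's quasi-likelihood test over the 19019 genes with enough counts. In that test 2.49% of genes were called higher, 1.97% lower and 4.46% in all. The 7 tested members had at least 28 expected counts in every library of either genotype. Their fitted log2 fold changes ran from 0.35 to 3.28 with a median of 1.05, against a median of 0.01 over all tested genes. In all 7 the lowest mutant library lay above the highest wild-type library, which held for 13.4% of tested genes in that direction.

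**Figure D1:**
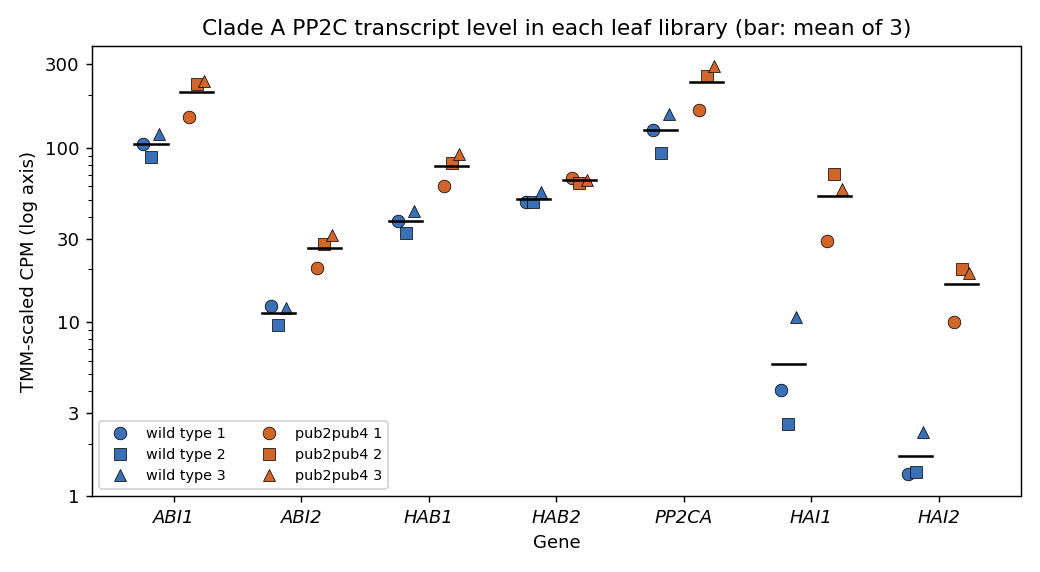
Level of the 7 tested clade A genes in each library, as TMM-scaled CPM on a log axis, with wild type in blue, pub2pub4 in orange, a marker shape per replicate and a bar at the mean of 3. For every gene shown, the 3 orange points lie above the 3 blue points, by the least for PP2CA, where the lowest mutant library is 1.05 times the highest wild-type library.

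ABI1 (AT4G26080, chromosome 4, 13219915 to 13222376, minus strand, TAIR10.1) encodes the phosphatase first found through a dominant ABA-insensitive mutant. It was at 105, 87.9 and 120 CPM in wild type 1, 2 and 3 and at 150, 231 and 241 CPM in pub2pub4 1, 2 and 3. The groups were apart, and pub2pub4 1 stood nearest to wild type. Means were 104 ± 16.0 and 207 ± 49.7 CPM (SD, n = 3 each). The log2 fold change was 0.99 ± 0.21 (SE), and with an edgeR adjusted p of 0.0562 ABI1 missed the threshold. It was called by DESeq2, which called 3.95% of tested genes higher, and in edgeR without pub2pub4 1 (adjusted p 0.0113). The annotated span of ABI1 shares 22 bases with that of MEK1, a MAP kinase kinase gene on the other strand, whose mean was 16.7 CPM in wild type against 14.7 CPM in pub2pub4.

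ABI2 (AT5G57050, chromosome 5, 23087122 to 23089631, plus strand), the close homologue of ABI1 with a dominant insensitive allele of its own, was at 12.4, 9.55 and 12.0 CPM in wild type and at 20.3, 27.9 and 31.4 CPM in the mutant. The lowest mutant library was 1.64 times the highest wild-type library. ABI2 rose by a log2 fold change of 1.23 ± 0.18 (SE, n = 3 each; edgeR adjusted p 0.0175), a fold of 2.34. The call held in 3 of the 6 leave-one-out fits and was lost without wild type 1, without wild type 2 and without pub2pub4 2 (adjusted p up to 0.0750).

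HAB1 (AT1G72770, chromosome 1, 27389948 to 27393327, plus strand), a homologue of ABI1 whose loss gives ABA hypersensitivity, was at 37.7, 32.2 and 43.4 CPM in wild type and at 60.4, 81.6 and 92.3 CPM in pub2pub4. As for ABI1, wild type 3 was the highest wild-type library and pub2pub4 1 the lowest of the mutant. HAB1 rose by 1.05 ± 0.18 on the log2 scale (SE, n = 3 each; edgeR adjusted p 0.0308), and lost the call without the same 3 libraries as ABI2 (adjusted p up to 0.111).

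HAB2 (AT1G17550, chromosome 1, 6034270 to 6037398, plus strand), the nearest relative of HAB1, differed least. It was at 48.9, 48.5 and 55.7 CPM in wild type and at 67.1, 62.5 and 65.3 CPM in the mutant, where its libraries lay close together and pub2pub4 1 was the highest. Its rise was 0.35 ± 0.07 on the log2 scale (SE, n = 3 each; edgeR adjusted p 0.0420), a fold of 1.27. The call was kept only without wild type 3 among the 6 leave-one-out fits, and it was lost when libraries were scaled by their totals alone (adjusted p 0.0620).

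PP2CA (AT3G11410, chromosome 3, 3583782 to 3585850, minus strand), which acts on SnRK2 kinases and ion channels and whose loss makes germination hypersensitive to ABA, was at 126, 93.2 and 157 CPM in wild type and at 165, 259 and 293 CPM in pub2pub4. Pub2pub4 1 and wild type 3 were nearly level. The log2 fold change was 0.93 ± 0.28 (SE, n = 3 each; edgeR adjusted p 0.150), with a range of 0.75 to 1.14 over the leave-one-out fits and no call in any of the 6. DESeq2 called PP2CA with an adjusted p of 6.94e-04.

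The HAI genes are named as highly ABA-induced PP2C genes. HAI1 (AT5G59220, chromosome 5, 23894404 to 23896939, minus strand), also known as SAG113 for its role in water loss of senescing leaves, was at 4.05, 2.61 and 10.6 CPM in wild type and at 29.1, 70.7 and 58.0 CPM in the mutant. The wild-type libraries differed by 4.08 times among themselves, with wild type 3 the highest, and the lowest mutant library was 2.73 times that library. The log2 fold change of 3.18 ± 0.63 (SE, n = 3 each) had an edgeR adjusted p of 0.0657 and was not called. It ran from 2.83 without wild type 2 to 3.98 without wild type 3, with adjusted p of 0.0512 to 0.203 over the leave-one-out fits, and DESeq2 called it (adjusted p 1.53e-04).

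HAI2 (AT1G07430, chromosome 1, 2280746 to 2282828, minus strand), also known as AIP1 for its interaction with the potassium channel AKT1, was at 1.35, 1.38 and 2.35 CPM in wild type and at 10.03, 20.2 and 19.2 CPM in pub2pub4. The lowest mutant library was 4.27 times the highest wild-type library, the widest gap among the 7 tested members. HAI2 rose by 3.28 ± 0.36 on the log2 scale (SE, n = 3 each; edgeR adjusted p 0.0123), a fold of 9.69. Its call held in 4 of the 6 leave-one-out fits and was lost without wild type 1 and without wild type 2 (adjusted p up to 0.0692).

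HAI3 (AT2G29380, chromosome 2, 12608675 to 12610350, plus strand) was near the limit of detection, with 0, 1 and 0 expected counts in wild type and 3, 4 and 5 in the mutant. The pooled ratio of 12 counts to 1 was 11.9, with an exact 95% interval of 1.77 to 510.0 that covers counting error only and not the spread between libraries. Without a filter on low counts edgeR gave HAI3 an adjusted p of 0.145. AHG1 (AT5G51760, chromosome 5, 21026805 to 21029188, plus strand), known mainly from seeds, had 1 count in pub2pub4 1 and 0 in the other libraries. A count of 0 over the 3 wild-type libraries allows up to 0.0487 CPM, taking 3 counts as the limit, and 1 count lies below that limit, so no fold is given for AHG1.

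**Figure D2:**
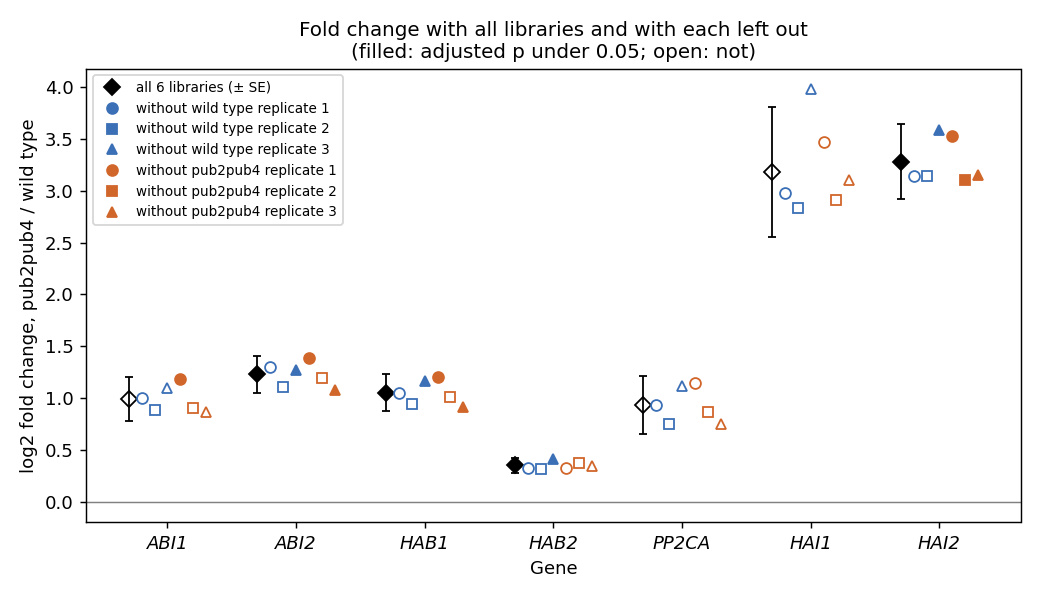
Log2 fold change of pub2pub4 over wild type for the 7 tested genes with all 6 libraries (black, with SE) and with each library left out, where filled symbols have an edgeR adjusted p under 0.05. Without wild type 1 or wild type 2 no gene is filled, without pub2pub4 2 only HAI2 is filled, and every value stays above 0.

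Most members shared the same extreme libraries within each genotype, except for the highest library of the mutant. Within wild type, 6 of the 7 tested members were highest in wild type 3 and 6 were lowest in wild type 2, where 35.2% and 31.2% of all tested genes had their extremes. Within the mutant, 6 of 7 were lowest in pub2pub4 1, as were 36.3% of all tested genes, and HAB2 was the exception. The highest mutant library was pub2pub4 1 for 1 member, pub2pub4 2 for 2 and pub2pub4 3 for 4. Of all tested genes 32.1%, 32.7% and 35.3% were highest there. Centred on each gene's mean over the 6 libraries, the average log2 level of the 7 members was -0.84, -1.11 and -0.41 in wild type 1, 2 and 3 and 0.36, 0.98 and 1.02 in pub2pub4 1, 2 and 3. Wild type 3 and pub2pub4 1 were thus the nearest libraries of the 2 genotypes. On the first principal component of all genes wild type 3 was also the wild-type library nearest the mutant (-17.7, against -31.4 and -37.0), while the mutant libraries lay at 28.2 to 29.6. On the second component, with 24.4% of the variance against 45.2% on the first, pub2pub4 1, 2 and 3 were spread from 31.8 over 9.31 to -38.8, so pub2pub4 1 and pub2pub4 3 were at its ends. What these differences between libraries reflect was not tested.

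Levels of different genes were compared as CPM per kilobase of the deposited gene length. On this scale the order of levels in wild type was PP2CA (76.5 ± 19.4), ABI1 (51.3 ± 7.87), HAB2 (20.9 ± 1.66), HAB1 (14.6 ± 2.16), ABI2 (5.44 ± 0.742), HAI1 (3.53 ± 2.62) and HAI2 (0.931 ± 0.313, all CPM per kilobase as mean ± SD, n = 3). In pub2pub4 it was PP2CA (146 ± 40.5), ABI1 (102 ± 24.5), HAI1 (32.2 ± 13.1), HAB1 (30.2 ± 6.27), HAB2 (26.6 ± 0.957), ABI2 (12.8 ± 2.73) and HAI2 (9.07 ± 3.09). All genes were measured in the same libraries, so neighbours were also compared within each library. In wild type each gene exceeded the next in 3 of 3 libraries, except that ABI2 exceeded HAI1 in 2 of 3 and lay below it in wild type 3. In pub2pub4 the order held in 3 of 3 libraries except among HAI1, HAB1 and HAB2, where HAI1 exceeded HAB1 in 1 of 3 (pub2pub4 2) and HAB1 exceeded HAB2 in 2 of 3. PP2CA was 1.49, 1.31 and 1.62 times ABI1 in wild type 1, 2 and 3 and 1.36, 1.39 and 1.51 times ABI1 in the mutant, although their mean ± SD overlapped in both genotypes. The mean ± SD of HAI1 and HAI2 in wild type and of ABI2 and HAI2 in the mutant also overlapped, with the order held in 3 of 3 libraries. No order of neighbours was tested.

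The summed level of the 9 genes was 172, 139 and 208 CPM per kilobase in the wild-type libraries and 258, 397 and 421 in pub2pub4, a ratio of means of 2.07. This sum was not tested. The largest differences within it were those of PP2CA (76.5 against 146), ABI1 (51.3 against 102) and HAI1 (3.53 against 32.2), which did not pass the test as single genes. ABI1 and PP2CA made up 73.6 ± 1.56% of this sum in wild type and 68.8 ± 1.60% in the mutant (SD, n = 3 each). HAI1 and HAI2 together took 1.87, 1.69 and 3.76% in wild type and 9.03, 13.7 and 10.9% in pub2pub4, with no overlap. The share of HAB2 was 12.3 ± 1.74% and 7.81 ± 2.45%, and that of HAB1 8.49 ± 0.430% and 8.49 ± 0.542% (SD, n = 3 each).

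**Figure D3:**
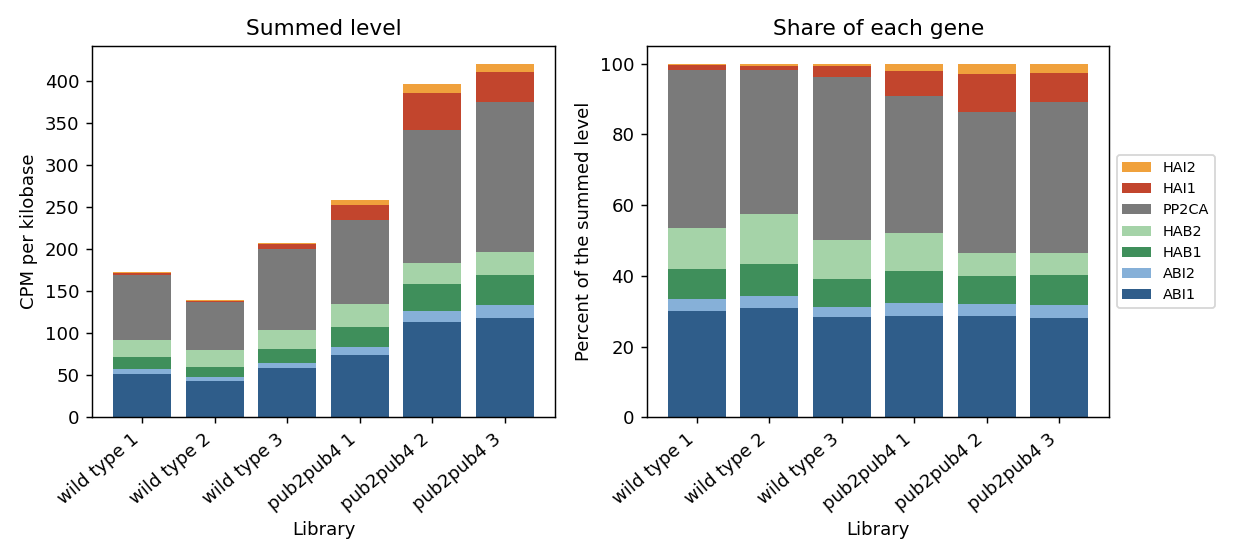
Left, level of each clade A gene in CPM per kilobase, stacked by library; right, the same as percent of the sum of all 9 genes (AHG1 and HAI3, together under 0.1%, are not drawn). The stack is taller in each mutant library than in any wild-type library, and the red and orange bands of HAI1 and HAI2 take 1.69 to 3.76% of the sum in wild type and 9.03 to 13.7% in pub2pub4.

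Ratios between members within a library were compared for 5 pairs with exact two-sided permutation tests, which with 3 libraries against 3 cannot give a p under 0.1. Per length, HAB2 was at 1.37, 1.60 and 1.36 times HAB1 in wild type and at 1.18, 0.811 and 0.749 times HAB1 in pub2pub4, so HAB1 exceeded its paralogue in 2 of 3 mutant libraries and in 0 of 3 wild-type libraries. HAI1 was at 0.0322, 0.0281 and 0.0681 times PP2CA in wild type and at 0.177, 0.274 and 0.199 times in the mutant. HAI2 was at 0.00965, 0.0133 and 0.0135 times PP2CA in wild type and at 0.0550, 0.0705 and 0.0591 times in the mutant. For these ratios, and for ABI2 to ABI1 (0.106 ± 0.00847 and 0.126 ± 0.00711, SD, n = 3 each), the groups did not overlap and the exact p was 0.1, the smallest possible, or 0.125 adjusted over the 5 pairs. The ratio of HAI2 to HAI1 was 0.324 ± 0.140 in wild type and 0.288 ± 0.0275 in the mutant (SD, n = 3 each; exact permutation p 0.8).

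Phosphatases outside clade A are known for other roles, among them growth and immune kinase signalling. Of 61 other genes with phosphatase 2C in their annotated product, 50 were tested; 1 rose and 2 fell, which is 6.0% called against 4.46% of all tested genes, and the median log2 fold change was 0.01. The gene that rose was EGR2 of clade E, a growth regulator under drought, at 8.74 ± 2.81 CPM in wild type against 34.0 ± 2.49 CPM in pub2pub4 (SD, n = 3 each), with a log2 fold change of 1.96 ± 0.21 (SE, edgeR adjusted p 0.0120). Those that fell were PP2C.D1 of clade D (-0.72, adjusted p 0.0346) and AT1G34750 (-0.65, adjusted p 0.0444) in the same edgeR fit. The leave-one-out fits called EGR2 in 4, PP2C.D1 in 1 and AT1G34750 in 0 of 6. PP2C.D1 overlaps MOS11, at 96.4 CPM in wild type, by 91 bases, and EGR2 overlaps PLDP2, at 5.11 CPM, by 8 bases. Only reads from the shared bases cannot be told apart with certainty. The expected counts of PP2C.D1, MOS11, EGR2 and PLDP2 were whole numbers in every library. The mutant mean of PLDP2 was 8.955 CPM, below that of EGR2. Of these 50 genes 8 had mutant libraries all above wild type and 8 all below, and 26.2% of all tested genes had no overlap in either direction. PLL4 of the POLTERGEIST-like clade C, whose product carries another name, fell by 0.35 on the log2 scale (edgeR adjusted p 0.0400) and was called in 1 of the 6 leave-one-out fits. AP2C2, a MAP kinase phosphatase gene of clade B chosen after its values were seen, was at -1.53 without passing (adjusted p 0.168).

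Receptors of the PYR/PYL family bind ABA and then block clade A phosphatases. Of their 14 genes 9 were tested, and edgeR called 1 lower, PYL4, and 0 higher, with a median log2 fold change of -0.19. PYL7 alone was higher at an unadjusted p under 0.05 (1 gene), and DESeq2 and limma-voom called 0 higher. The annotated span of PYL7 shares 571 bases with AT4G01030 and 269 bases with AT4G03845 on the other strand, so reads from the shared bases cannot be told apart with certainty. The mean of AT4G01030 was 6.75 CPM in wild type against 6.87 CPM in pub2pub4. The level of PYL4 was 45.0 ± 6.004 CPM in wild type against 30.04 ± 3.74 CPM in pub2pub4 (SD, n = 3 each), with a log2 fold change of -0.58 ± 0.12 (SE, edgeR adjusted p 0.0420), a call that was lost in each of the 6 leave-one-out fits. PYL6 and PYL8 had log2 fold changes of -1.06 and -0.19 (adjusted p 0.0838 and 0.143). Summed per length, the 14 receptor genes were at 216, 240 and 252 CPM per kilobase in wild type and at 205, 215 and 213 in pub2pub4. The ratio of the phosphatase sum to the receptor sum was 0.798, 0.582 and 0.826 in wild type and 1.26, 1.85 and 1.98 in the mutant. With the deposited lengths the phosphatase sum was thus the larger in every mutant library and in no wild-type library. Deposited lengths of PYR1 and PYL8 were 841 and 1183 bases, against 1289 and 1748 for their longest annotated transcripts. For ABI1 and PP2CA they were 2031 and 1639 bases against 2169 and 1800. Which sum is larger can therefore depend on the length used, and this ratio was not recomputed with the longest transcripts. These are transcript levels and not amounts of protein.

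Among the 10 SnRK2 genes, whose products the phosphatases inactivate, 9 were tested and OST1 rose, while 8 did not pass, and the median log2 fold change was -0.02. OST1 (SnRK2.6), the kinase of stomatal closure, was at 9.05 ± 0.536 CPM in wild type against 13.02 ± 0.313 CPM in pub2pub4 (SD, n = 3 each), and its log2 fold change was 0.52 ± 0.09 (SE, edgeR adjusted p 0.0234), called in 1 of the 6 leave-one-out fits. SnRK2.8 and SnRK2.1 had log2 fold changes of -0.31 and -0.07. The ABA-activated kinases SnRK2.2, SnRK2.3 and OST1 summed to 108 ± 3.03 CPM per kilobase in wild type and 113 ± 5.54 in pub2pub4 (SD, n = 3 each), and the phosphatase sum was 1.60 ± 0.290 and 3.20 ± 0.901 times that level.

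Of 8 genes for ABA-related bZIP factors, which bind ACGTG cores such as those printed for HAI2 and PP2CA, 7 were tested, 2 rose and 5 did not pass, with a median log2 fold change of 0.18. ABF3 was at 22.9 ± 4.002 CPM in wild type against 51.4 ± 10.5 CPM in pub2pub4 (SD, n = 3 each), with a log2 fold change of 1.17 ± 0.19 (SE, edgeR adjusted p 0.0263), and ABF2 rose by 0.63 ± 0.13 (SE, edgeR adjusted p 0.0380). The leave-one-out fits called ABF3 in 2 and ABF2 in 1 of 6, and AREB3 was at 0.18 (adjusted p 0.243). ABF3 shares 24 bases with DJ1C on the other strand, whose mean was 34.1 CPM in wild type against 31.7 CPM in pub2pub4.

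Of 11 genes whose products are known to act on clade A phosphatases or on their genes, 10 were tested, and edgeR called 2 higher and 0 lower, with a median log2 fold change of 0.01. No gene of the list was lower at an unadjusted p under 0.05 (0 genes), and DESeq2 and limma-voom called 0 lower. Both that rose encode HD-Zip class I factors: ATHB-7, a positive regulator of clade A PP2C genes, by 2.11 ± 0.37, and ATHB-6, which binds ABI1, by 0.41 ± 0.09 (SE; edgeR adjusted p 0.0441 and 0.0484). Each was called in 1 of the 6 leave-one-out fits, and ATHB-12 was at 1.04 (adjusted p 0.177). The U-box ligase genes PUB12 and PUB13, whose products target ABI1 for degradation and which were named after their values were seen, were at -0.16 and -0.11 (adjusted p 0.524 and 0.492).

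ABI5-binding proteins are another group known to dampen ABA responses, by promoting loss of the factor ABI5. Of their 4 genes AFP3 rose by 1.66 ± 0.18 and AFP1 by 2.47 ± 0.41 (SE; edgeR adjusted p 0.00883 and 0.0319), and AFP2 (0.81) and AFP4 (0.11) did not pass. The leave-one-out fits called AFP3 in 5 and AFP1 in 2 of 6. AFP1 shares 32 bases with RPK1, a receptor kinase gene whose mean was 15.4 CPM in wild type against 23.1 CPM in pub2pub4. Among 10 genes of ABA synthesis and breakdown 1 rose and 9 did not pass, with a median of 0.10. It was CYP707A2, for an ABA hydroxylase that breaks the hormone down, at 6.41 ± 0.157 CPM in wild type against 11.5 ± 2.08 CPM in pub2pub4 (SD, n = 3 each), with an edgeR adjusted p of 0.0213 and a call in 3 of the 6 leave-one-out fits. CYP707A4 and ABA1 were at 0.50 and 0.13.

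Of 5 genes used as markers of the ABA response, several of them also induced by cold and drought, 4 rose and RAB18 did not pass (log2 1.48, adjusted p 0.0586). The dehydrin gene COR47 was at 131 ± 25.3 CPM in wild type against 321 ± 10.09 CPM in pub2pub4 (SD, n = 3 each), with a log2 fold change of 1.29 (edgeR adjusted p 0.00714), and was called in 6 of the 6 leave-one-out fits. RD29A rose by 2.04 and KIN2 by 1.67 on the log2 scale (edgeR adjusted p 0.0166 and 0.0218), with calls in 4 and 2 of the 6 fits. RD29B had the largest log2 fold change of the 5 at 2.64 (edgeR adjusted p 0.0331), but with means of 0.161 CPM in wild type and 1.04 CPM in pub2pub4 it had only 3 to 4 expected counts in each wild-type library and was called in 1 of the 6 fits.

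**Figure D4:**
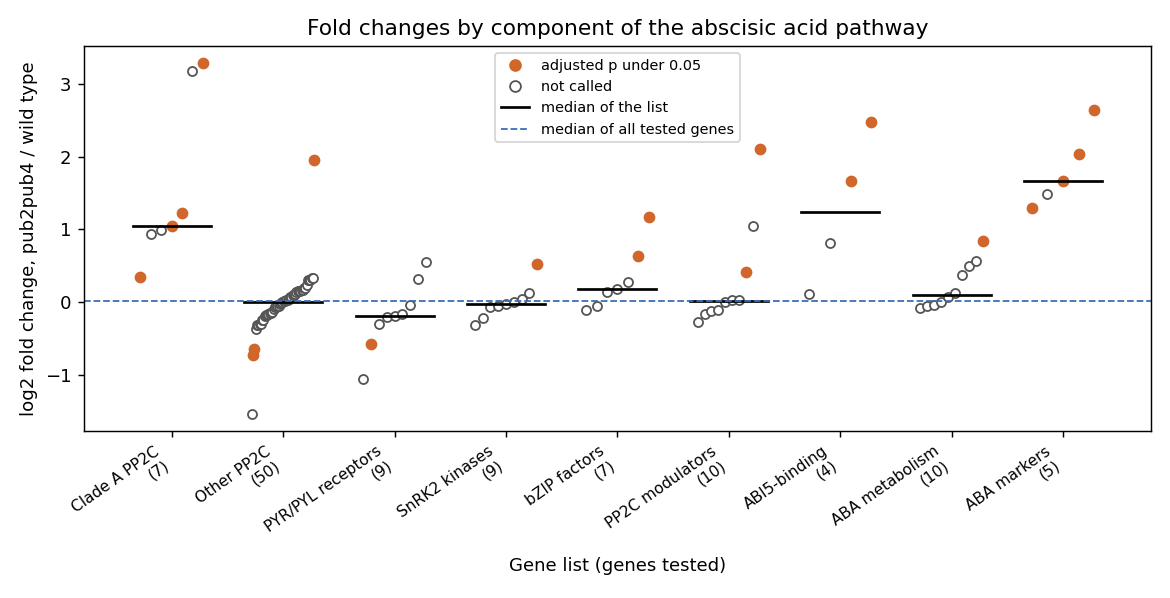
Log2 fold change of each tested gene in the lists described, with filled orange points for an edgeR adjusted p under 0.05, black bars for list medians and a dashed line for the median of all tested genes (0.01). The medians are 1.05 for clade A, 0.01 for other PP2C genes, -0.19 for receptors, -0.02 for SnRK2 kinases, 0.18 for bZIP factors and 1.23 for ABI5-binding proteins.

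Genes nearest the mean profile of the clade A members were sought among 5863 other tested genes with a symbol and a mean of at least 16.6 CPM. The measure was the root mean square difference, over the 6 libraries, between a gene's centred log2 level and the mean centred profile of the 7 tested members. The members' own log2 fold changes ran from 0.35 to 3.28, so a gene near their mean need not be near each member. The nearest was NAC032 (difference 0.086 on the log2 scale), a NAC transcription factor gene. It was followed by P5CS1 for proline synthesis (0.176), the dehydrin gene ERD10 (0.178), AFP3 (0.189) and the cold-response factor gene DREB1A (0.228). DREB1A was not called (edgeR adjusted p 0.105). NAC032 had centred log2 levels of -0.76, -0.99 and -0.47 in wild type 1, 2 and 3 and of 0.22, 0.96 and 1.04 in pub2pub4 1, 2 and 3. It therefore had the same order of libraries as the mean of the members within each genotype. The measure takes in the difference between genotypes as well as the spread within them, over 6 libraries only.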

How the data were processed

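Messenger RNA of 6 leaf libraries was sequenced on an Illumina HiSeq 2500, per the labels' protocols. The authors deposited one table, with expected counts per gene and library and a gene length. The submitters' processing notes name RSEM 2.1.30, TopHat2 2.1.0 and the TAIR10 genome without their roles. The sources used here do not give the strand setting, the annotation release or any filter. All 54 expected counts of the 9 members were whole numbers (within 0.001), and 0 of their transcripts' 50-base words occurred in a transcript of another gene. The members and all lists were chosen with earlier results of these data known.

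Expected counts were rounded and fitted in R 4.3.3 with edgeR 4.0.16: filterByExpr (minimum count 10, minimum total 15), TMM, robust quasi-likelihood, group as the only term, two-sided, and Benjamini-Hochberg adjustment over 19019 genes. As a check of the code, the fit was also run on simulated counts with 200 genes changed. These were drawn independently for each gene, without deviations shared between genes, so they do not vouch for the calls made here. SE is the log2 fold change divided by the square root of F. Alternative fits used DESeq2 1.42.0, limma-voom (limma 3.58.1), a block for the replicate number, 5 of the 6 libraries at a time (leave-one-out), other scalings and filters, no rounding and another gene length. Named genes are the 9 members, the called genes and up to 3 genes with the smallest p of each list, and the 5 nearest profiles; others are marked as chosen later. Annotation and promoters are from RefSeq on TAIR10.1; the deposited table has no coordinates.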

Additional observations from a re-analysis of the deposited data

How the results depend on the processing

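Each of the 7 tested members kept a positive log2 fold change in all 98 fits of a member under an alternative; 80 kept their side of the threshold, 14 lost a call and 4 gained one. DESeq2 called 7 members higher against 4 by edgeR, where 3.95% of its tested genes were called higher, and 2 other pathway genes lower against 1. With a library left out the members called higher numbered 0 to 4, the other pathway genes called higher 1 to 10 (12 with all libraries) and those called lower 0. The members called were 0 without wild type 1 or wild type 2 and 1 without pub2pub4 2, and the pathway genes called higher were 2, 3 and 1 in those fits and 7 without wild type 3. Over all genes 848 were called, against 1460 by DESeq2. That number was 132 and 86 when wild type 1 or 2 was dropped, 540 and 91 when pub2pub4 1 or 2 was dropped, 659 when wild type 3 was dropped and 1210, above the number with all libraries, when pub2pub4 3 was dropped. The cause was not tested. Same-numbered libraries had deviations that correlated at 0.126, 0.0642 and 0.152, and differently numbered ones at -0.176 to 0.0755. For each mutant library the same-numbered wild-type library had the highest value. The main fit did not take the numbers as pairs, and whether they mark pairs was not tested. With the replicate number as a block 4 members, 11 pathway genes higher, 1 lower and 1066 genes in all were called. The summed clade A level in pub2pub4 over wild type was 2.06 under the other length and 2.04 under library totals alone, against 2.07. The joint share of HAI1 and HAI2 moved by less than its spread between libraries under both. With the other length this share was 2.28% in wild type and 10.6% in pub2pub4, against 2.44% and 11.2%. The receptor and SnRK2 sums, the other shares and the ratios between genes were not recomputed. At this depth AHG1 and HAI3 had too few counts to be tested.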
